A study of Mus musculus with 3 samples.

Results

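The tumour necrosis factor (TNF) superfamily was examined in EpH4-PR cells on 3 Agilent arrays of the mouse genome. Members were taken by gene name alone. They were all probes whose name in the array files begins with Tnfsf or Tnfrsf and a number, together with Tnf, Lta, Ltb, Ltbr, Fas, Fasl, Cd40, Cd40lg, Cd27, Ngfr, Eda, Edar and Traf1 to Traf6. This gave 70 of the 41174 probes and 52 of the 29273 gene names. Of these names, 18 were ligands (21 probes), 27 were receptors (39 probes) and 6 were TRAF adaptors (8 probes). The remaining name, Tnfsf5ip1 (2 probes), matched the pattern only by its spelling, since its current symbol is Psmg2, a proteasome assembly chaperone. For 15 of the 52 names the array carried more than 1 probe.

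EpH4 is a mouse mammary epithelial line, and EpH4-PR cells are EpH4 cells transfected with the A isoform of the progesterone receptor (PR-A) and selected as stable clones. The cells were grown in medium with 10% FBS to about 75% confluence, and the labels name no hormone treatment. RNA of EpH4-PR cells was labelled with Cy5 on all 3 arrays and a commercial mouse reference RNA (Stratagene) with Cy3, with no dye swap, so that a dye effect and the difference between the RNAs cannot be told apart. Arrays of the vector control EpH4-EV were not analysed here, and each ratio is therefore a level in EpH4-PR cells relative to the reference RNA and not an effect of PR. The sources do not say whether the 3 arrays hold separate cultures, so the p-values measure only the spread between arrays, which may be technical.

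Most TNF ligands are made as trimers in the cell membrane and act on trimeric receptors, from the membrane or after cleavage. Receptors with a death domain recruit adaptors that lead to caspases, while most others bind TRAF proteins, which activate NF-kB and MAP kinases, and decoy receptors bind ligand without a signal. In the mammary gland the best known member is RANKL (Tnfsf11), which progesterone induces in luminal cells and which acts through RANK (Tnfrsf11a) on neighbouring cells to drive side-branching and alveolar growth.

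The arrays limited what could be said about dim members. The scanner software flags a spot as well above background against its local surroundings, and the negative control spots read higher than that local background. In Cy5 the median negative control read 72.6, 74.1 and 57.3 on replicates 1, 2 and 3, while the local background had a median of 42, 43 and 42. A stricter criterion, chosen after the data were seen, therefore asked that a spot exceed the 95th percentile of the 314 negative control spots of its array and channel on all 3 arrays. That percentile was 85.9, 87.4 and 62.9 in Cy5 and 162, 168 and 107 in Cy3. All 314 spots carry 1 sequence. The limit therefore measures the spread between spots of that sequence and not between probe sequences. Across member probes the log2 ratios of replicates 1 and 2 had a Pearson correlation of 0.981, against 0.949 and 0.954 for the pairs with replicate 3, over probes that share arrays and are not independent. Of 8 epithelial marker genes 7 were called higher than in the reference RNA and Krt19 was called lower (log2 ratio -2.62), whereas all 8 mesenchymal marker genes had a probe called lower. By probe 88.9% of the epithelial markers were called higher, against 2.25% of all probes. Of the mesenchymal marker probes 56.2% were called lower, against 3.85%. Among leukocyte markers 4 of 12 genes had a probe called lower and 0 higher. By probe 22.7% were called lower, against 3.85% of all probes. The cell types behind the reference RNA are not given in the sources used here, and fewer cells of a type and less RNA per cell cannot be told apart in it. What part such cells have in the member ratios was not tested.

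By the scanner flag, 55 of the 70 member probes (78.6%) were well above background in EpH4-PR RNA on all 3 arrays, against 68.9% of all probes, and they covered 44 of the 52 gene names. By the negative control criterion 51 member probes (72.9%) were detected in EpH4-PR RNA, against 66.8% of all probes, and they covered 40 names. By role, these were 11 of 18 ligands, 22 of 27 receptors and all 6 TRAF adaptors. In the reference RNA only 26 member probes (37.1%) passed, and 24 (34.3%) passed in both channels, against 32.8% of all probes. The 27 member probes that passed in EpH4-PR RNA alone had ratios of at most 0.78 log2 units either way, and for these the ratio rests on a reference signal at the level of the negative controls.

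Calls required both an adjusted p under 0.05 (limma, Benjamini-Hochberg over 41171 probes) and a change of 1 log2 unit or more in either direction. Of the member probes 3 (4.29%) were called higher in EpH4-PR RNA, against 2.25% of all probes, and 5 (7.14%) lower, against 3.85%. The higher ones were Tnfrsf12a, Traf4 and Ltbr, and the lower ones were Ltb, Tnfrsf18, Traf5, Tnfsf12 and 1 of the 2 probes of Tnfrsf13b. Among the 24 member probes that exceeded the negative controls in both channels, 3 (12.5%) were called higher against a background of 4.28%, and 3 (12.5%) lower against 10.6%. At any size of ratio, 7 of the 24 (29.2%) had an adjusted p under 0.05 and lay above the reference, against 33.1% of all such probes, and 12 (50%) lay below it, against 45.2%. Their median log2 ratio was -0.15, close to the median of -0.10 over all 13500 such probes. These shares compare members with all probes as a description, and no test was made of the set.

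**Figure D1:**
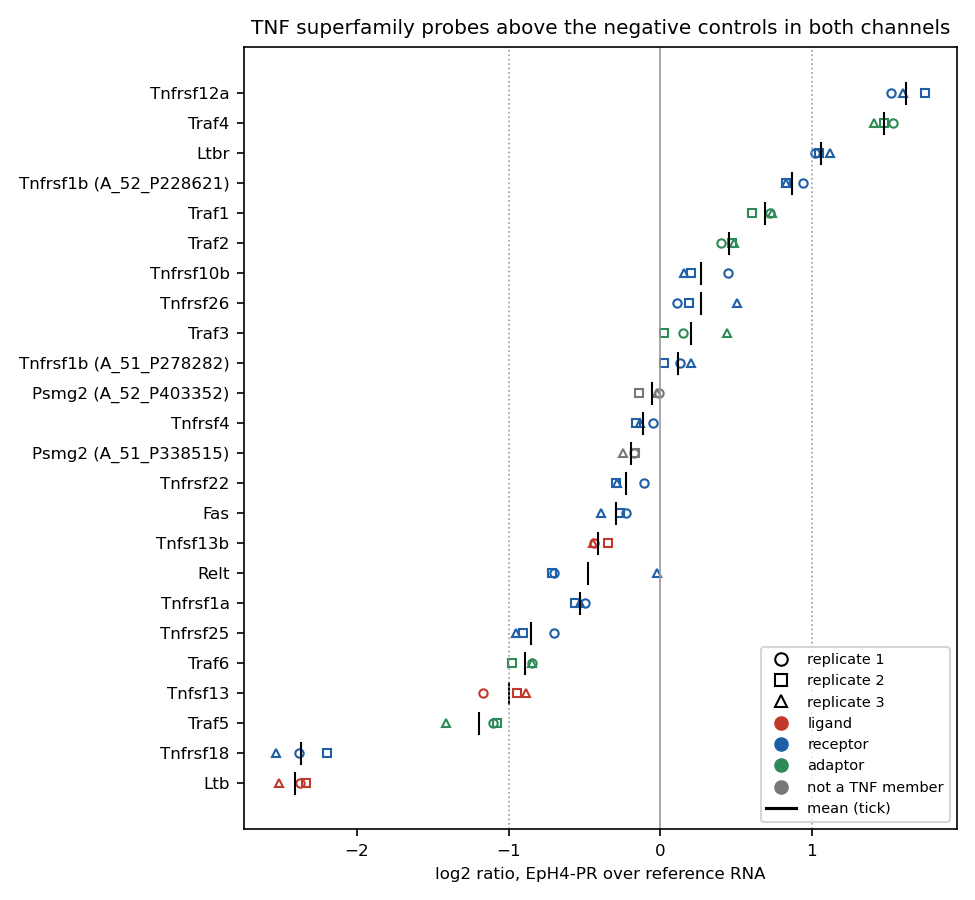
The plot gives the log2 ratio, EpH4-PR RNA over reference RNA (horizontal axis), for the 24 member probes that exceeded the negative controls in both channels, with 1 symbol per array, a tick at the mean and dotted lines at a log2 ratio of 1 either way. Ltb and Tnfrsf18 lie near -2.4 and Tnfrsf12a, Traf4 and Ltbr above 1 on every array, while most of the other probes lie within 1 unit of 0, where the sign of several (Fas, Tnfrsf1a, Tnfrsf4, Tnfrsf22, Tnfsf13b and Psmg2) turns under median centring.

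Among the ligands, lymphotoxin beta (Ltb), the membrane subunit of the lymphotoxin heterotrimer that is needed for lymph node formation, had the lowest ratio. Its log2 ratio was -2.38, -2.34 and -2.51 on replicates 1, 2 and 3. The 3 arrays lay close together and far below 0. The mean was -2.41 ± 0.09 (SD, n = 3; limma adjusted p = 1.7e-05), which is 5.31-fold lower than in the reference RNA. The EpH4-PR spot still read 133, 128 and 117, above the negative control limit on each array. The log2 ratio ranged from -3.38 with the scanner software's log ratio to -1.69 under median centring and was called under both.

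TWEAK (Tnfsf12), a ligand that promotes cell growth and migration through its receptor Fn14, was also called lower. Its log2 ratio was -1.15, -0.96 and -1.21, averaging -1.11 ± 0.13 (SD, n = 3; limma adjusted p = 0.000134). In EpH4-PR RNA the spot read 85.9, 92.3 and 69.4, so that it exceeded the negative control limit on only 2 of the 3 arrays and lay close to it on all of them, and the log2 ratio was -2.70 with the scanner software's log ratio. APRIL (Tnfsf13), which acts on B cells and plasma cells, lay just inside the limit for a call, at -1.17, -0.94 and -0.88, averaging -0.998 ± 0.15 (SD, n = 3; limma adjusted p = 0.000264), and was called without replicate 2 and without replicate 3. It was not called without replicate 1 (-0.91), and under median centring it lay at -0.33 and over bright probes at -0.76. BAFF (Tnfsf13b), the B cell survival factor, had a log2 ratio of -0.41 at the probe that exceeded the negative controls in both channels, which became 0.0995 under median centring, and -0.73 at its second probe, which was well above background in EpH4-PR RNA on 2 arrays.

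TNF itself (Tnf), the founding ligand and a central inducer of inflammation, read 0.22, 0.21 and -0.16, a mean of 0.09 (limma adjusted p = 0.429). The replicates lay on both sides of 0. Its spot exceeded the negative controls in EpH4-PR RNA on all 3 arrays but in the reference RNA on only 1. Lymphotoxin alpha (Lta), the soluble partner of Ltb, was at -0.03 with a reference spot that exceeded the negative controls on no array. Ltb, Tnf and Lta lie next to each other in the RefSeq annotation, with 0 protein-coding genes between them, and only the ratio of Ltb was called.

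Ectodysplasin (Eda), the ligand that patterns hair, teeth and glands, read 0.53, 0.44 and 0.42, averaging 0.46 ± 0.06 (SD, n = 3; limma adjusted p = 0.000943). The reference spot was well above background on no array and exceeded the negative controls on none. No minimum difference is therefore read from the ratio. The log2 ratio was 2.33 with normexp offset 0 and turned to -0.21 under median centring over bright probes. The remaining ligands well above background in EpH4-PR RNA on all 3 arrays were Cd40lg, Cd70, Tnfsf8, Tnfsf9, Tnfsf14 and Tnfsf15, most of which act on T or B cells, with ratios from -0.21 to 0.17 and no adjusted p under 0.05. Fas ligand (Fasl) was well above background on 2 arrays at each of its 2 probes.

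The 4 ligands that were well above background in EpH4-PR RNA on no array were Tnfsf10 (TRAIL), Tnfsf11 (RANKL), Tnfsf4 (OX40 ligand) and Tnfsf18 (GITR ligand). None of them exceeded the negative controls in EpH4-PR RNA on any array. This is a limit of detection and does not show that the transcripts are absent. The receptors without such a signal were BCMA (Tnfrsf17) and the BAFF receptor (Tnfrsf13c), both of the B lineage. For Tnfrsf17 the reference spot was well above background on all 3 arrays but exceeded the negative controls on only 1. Its measured log2 ratio was -0.32, and no minimum difference is read from it.

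The RANK axis was at or near the detection limit throughout. The 2 probes of RANKL read 79.0, 81.3 and 59.5 and 72.7, 72.6 and 56.0 in EpH4-PR RNA on replicates 1, 2 and 3. Every one of these 6 values lay below the 95th percentile of the negative controls of its array. RANK (Tnfrsf11a) read 109, 108 and 78.8 in EpH4-PR RNA, above the negative controls on all 3 arrays, but in the reference RNA on none. Its log2 ratio was -0.15, -0.19 and 0.13, averaging -0.07 ± 0.17 (SD, n = 3; limma adjusted p = 0.49). Osteoprotegerin (Tnfrsf11b), the secreted decoy receptor of RANKL, read 113, 121 and 88.1 in EpH4-PR RNA, above the negative controls on all 3 arrays. Its log2 ratio was -0.27, -0.40 and -0.29, averaging -0.32 ± 0.07 (SD, n = 3; limma adjusted p = 0.00414), with a reference spot above the negative controls on 1 array. The progesterone receptor gene Pgr had 2 probes, each well above background in EpH4-PR RNA on 1 array, with log2 ratios of -0.11 and -0.19. Whether these probes lie inside the transfected PR-A sequence is not given in the sources used here, so they do not check the transfection.

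**Figure D2:**
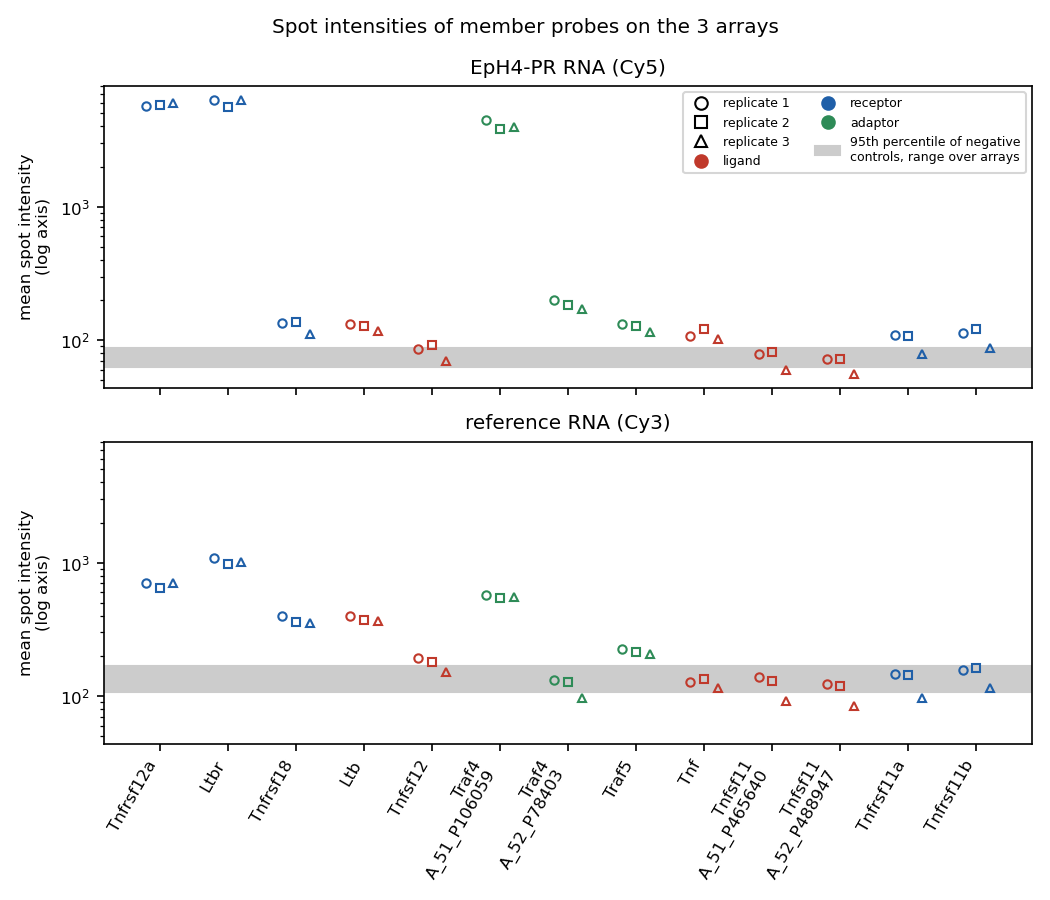
The panels give the mean spot intensity (vertical log axis, scanner units before background correction) of selected member probes in EpH4-PR RNA (Cy5, top) and reference RNA (Cy3, bottom), with 1 symbol per array and a grey band for the range over arrays of the 95th percentile of the negative controls. Tnfrsf12a, Ltbr and the first Traf4 probe stand far above the band in both channels. Ltb and Tnfrsf18 stand above it in Cy3 and close above it in Cy5, and both RANKL probes lie inside or below it. Heights of different probes, and heights in different panels, are not to be compared.

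Fn14 (Tnfrsf12a), the receptor of TWEAK, which many epithelial cells induce on injury or growth factor stimulation, had the highest ratio of all member probes. Its log2 ratio was 1.52, 1.74 and 1.60 on replicates 1, 2 and 3. Each array lay above every value of the other member probes except those of Traf4. The mean was 1.62 ± 0.11 (SD, n = 3; limma adjusted p = 4.1e-05), or 3.08-fold. Before correction the spot read 5641, 5750 and 6006 in EpH4-PR RNA and 709, 649 and 710 in reference RNA. Loess had not been applied to these readings, so the gap between the dyes is not the ratio of the RNAs. The log2 ratio was 3.01 under median centring and between 1.56 and 1.67 under every other alternative except median centring over bright probes, where the call also held.

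The lymphotoxin beta receptor (Ltbr), which activates the noncanonical NF-kB pathway in stromal and epithelial cells, read 1.02, 1.05 and 1.12, averaging 1.06 ± 0.05 (SD, n = 3; limma adjusted p = 6.2e-05). All 3 arrays lay just past the limit for a call. Before correction and loess the spot read 6341, 5572 and 6261 in EpH4-PR RNA and 1077, 979 and 1011 in reference RNA. The gap between these readings is not the ratio of the RNAs. The log2 ratio reached 2.47 under median centring.

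GITR (Tnfrsf18), a costimulatory receptor best known on regulatory T cells, was the lowest receptor. Its log2 ratio was -2.38, -2.20 and -2.53, averaging -2.37 ± 0.17 (SD, n = 3; limma adjusted p = 2.97e-05), or 5.17-fold lower than in the reference RNA. The EpH4-PR spot read 135, 138 and 112, above the negative controls on every array, and the log2 ratio was -1.65 under median centring. Its neighbour in the annotation is OX40 (Tnfrsf4), another T cell costimulatory receptor with 0 protein-coding genes in between. OX40 read -0.05, -0.16 and -0.14 (0.57 at the mean under median centring) and was not called. TACI (Tnfrsf13b), a B cell receptor of BAFF and APRIL, was called lower at 1 probe only, with -1.03, -0.94 and -1.33, averaging -1.10 ± 0.21 (SD, n = 3; limma adjusted p = 0.000391). That spot was well above background in EpH4-PR RNA on 2 arrays, its log2 ratio was -2.95 by the scanner software, its call was lost without replicate 3 (log2 ratio -0.99), and the second probe of the gene was at -0.28.

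TNF receptor 1 (Tnfrsf1a), the death domain receptor through which TNF acts in most cells, read -0.50, -0.57 and -0.53, averaging -0.53 ± 0.03 (SD, n = 3; limma adjusted p = 0.000455), and turned to 0.89 under median centring and 0.45 under median centring over bright probes. The 2 probes named Tnfrsf1b, TNF receptor 2, disagreed. The probe A_51_P278282 was at 0.12 (limma adjusted p = 0.119), while A_52_P228621 was at 0.87 (limma adjusted p = 0.000126; called higher at 1.78 under median centring), and the file describes the latter's target as TNF receptor 1 although its gene name is Tnfrsf1b. No level of TNF receptor 2 is therefore read from it. Fas, the receptor of Fas ligand, was at -0.29 (limma adjusted p = 0.00739), which became 0.61 under median centring. The TRAIL receptor Tnfrsf10b had 3 probes at 0.27, 0.23 and -0.09, of which the first exceeded the negative controls in both channels.

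The other death domain receptors gave mixed values. Tnfrsf25 (DR3) was at -0.85 at a probe above the negative controls in both channels (limma adjusted p = 0.000348) and at 0.01 at a second probe whose reference spot exceeded them on 1 array. Tnfrsf21 (DR6) was at 0.38, 0.37 and -0.02 at its 3 probes, the last from replicates 2 and 3 only because its spot on replicate 1 was an outlier. Edar, the ectodysplasin receptor, was at 0.36 (limma adjusted p = 0.0102), with a reference spot that exceeded the negative controls on no array. The neurotrophin receptor Ngfr was at 0.06 and 0.11 at its 2 probes.

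Relt was the member whose arrays disagreed most, with -0.70 and -0.71 on replicates 1 and 2 and -0.02 on replicate 3, a mean of -0.48 (limma adjusted p = 0.0485). That p did not hold without replicate 1 (-0.37; limma adjusted p = 0.168) or without replicate 2 (-0.36; limma adjusted p = 0.179), with outlier spots kept (0.0508), or under 4 further alternatives, with adjusted p from 0.111 to 0.264. The mouse decoy receptors Tnfrsf22 and Tnfrsf23 and their relative Tnfrsf26, which lie side by side in the annotation, were at -0.23 (0.18 under median centring), -0.07 and 0.27 (1.04 and called higher under median centring). The lymphoid receptors Cd40 and Cd27, listed in the file as Tnfrsf5 and Tnfrsf7, were at -0.15 and -0.22, Tnfrsf8 (CD30) was at -0.02, and Tnfrsf9 (4-1BB) was at 0.11 and -0.06 at its 2 probes well above background. In the reference RNA the spots of these 4 genes exceeded the negative controls on at most 1 array. Tnfrsf19 was at -0.21 at its probe well above background in EpH4-PR RNA on all 3 arrays, while the HVEM gene Tnfrsf14 was so on no more than 2.

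The TRAF adaptors, which couple the receptors to kinases, were all detected in both channels by the negative control criterion and went both ways. Traf4, a TRAF found at epithelial junctions and often raised in breast cancer, had a log2 ratio of 1.54, 1.48 and 1.41 at probe A_51_P106059. The mean was 1.47 ± 0.06 (SD, n = 3; limma adjusted p = 3.17e-05), or 2.78-fold, and reached 2.82 under median centring. Before correction and loess the spot read 4469, 3807 and 3935 in EpH4-PR RNA and 576, 542 and 550 in reference RNA. The gap between these readings is not the ratio of the RNAs. The second Traf4 probe was at 0.78 ± 0.05 (SD, n = 3; limma adjusted p = 0.000144), with a reference spot above the negative controls on no array. Traf1 (0.69; limma adjusted p = 0.000298) and Traf2 (0.45; limma adjusted p = 0.000918), which form complexes at TNF receptor 2, lay above the reference on all 3 arrays. Both were called higher under median centring (1.62 and 1.75) and under median centring over bright probes (1.19 and 1.32).

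Traf3, an inhibitor of the noncanonical NF-kB pathway, was at 0.21 with a limma adjusted p of 0.111, but was called higher under median centring (1.16) and lay at 0.72 under median centring over bright probes. Traf5, which signals from lymphoid receptors such as CD27 and CD30, read -1.11, -1.07 and -1.41, averaging -1.20 ± 0.19 (SD, n = 3; limma adjusted p = 0.000234), or 2.29-fold lower, with -1.99 by the scanner software and -0.74, inside the limit, under median centring. Traf6, the adaptor of RANK and Toll-like receptors, was at -0.89 ± 0.08 (SD, n = 3; limma adjusted p = 0.000136) at probe A_52_P510215 (-0.24 under median centring) and at 0.06 at A_51_P495259, whose reference spot exceeded the negative controls on no array. The probes of Psmg2 were at -0.19 and -0.06.

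**Figure D3:**
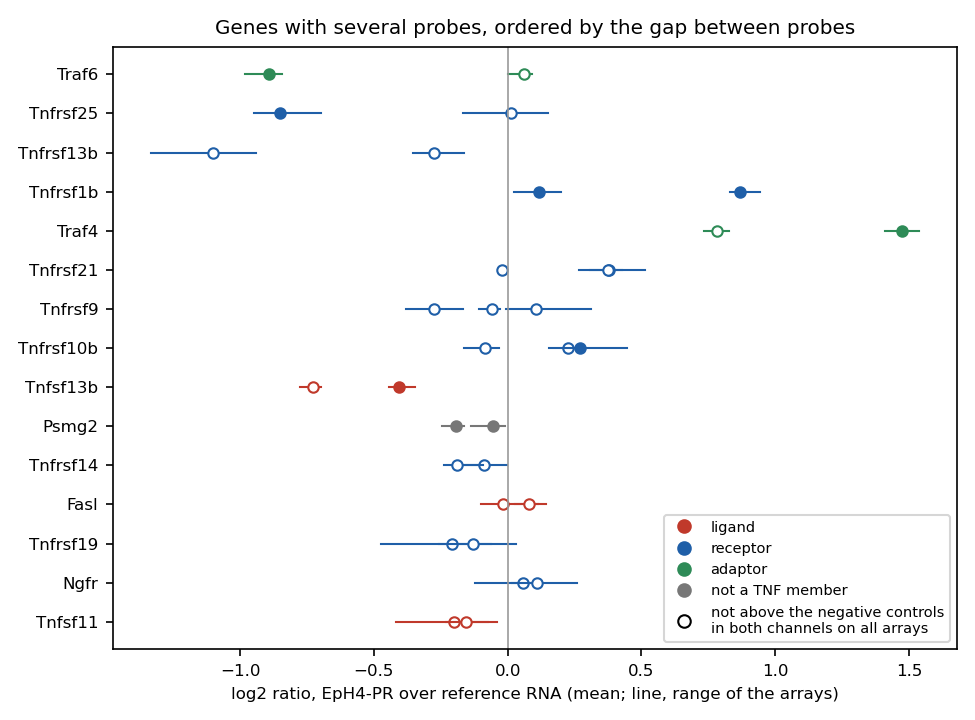
The plot gives the mean log2 ratio of every probe of the 15 genes with several probes (horizontal axis), with a line for the range of the arrays and open symbols for probes that did not exceed the negative controls in both channels. Gaps between probes of a gene reach 0.95 for Traf6 and 0.86 for Tnfrsf25, and in both genes the probe near 0 is an open symbol.

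For 14 known ligand and receptor pairs the ratios were set side by side. In 2 pairs the ligand was called lower and the receptor higher, namely Ltb (-2.41) with Ltbr (1.06) and Tnfsf12 (-1.11) with Tnfrsf12a (1.62). The calls of both pairs held under median centring. Over all probes 2.25% were called higher and 3.85% lower, and no share of opposite calls was worked out for other pairs of genes. Ltb with Ltbr was the 1 pair of the 14 in which ligand and receptor both exceeded the negative controls in both channels on all 3 arrays. For GITR (Tnfrsf18), called lower at -2.37, no order can be given, since its ligand Tnfsf18 exceeded the negative controls on no array in either channel.

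**Figure D4:**
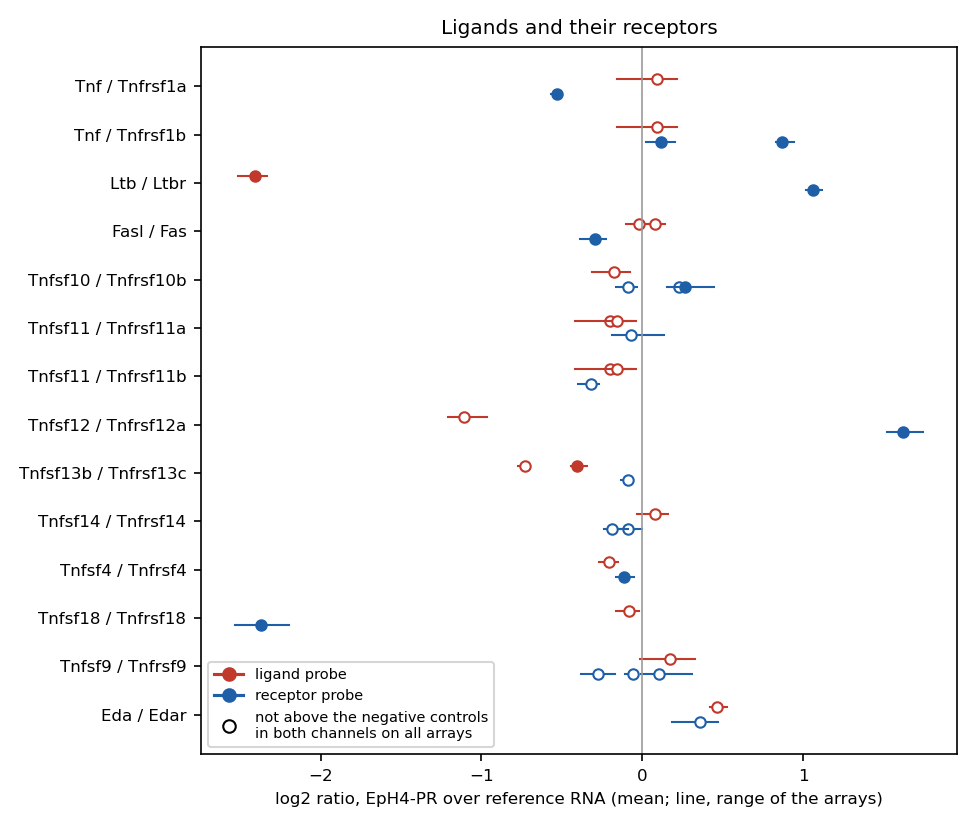
The plot gives the mean log2 ratio of each ligand probe (red) and receptor probe (blue) for the 14 pairs (horizontal axis), with a line for the range of the arrays and open symbols for probes that did not exceed the negative controls in both channels. The widest gaps belong to Ltb with Ltbr and Tnfsf12 with Tnfrsf12a, where the receptor lies above the reference and the ligand below it, and most other pairs show open symbols near 0.

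The 250 bases upstream of the annotated start were read for the genes the results turn on, so that the regions can be compared between called members and RANKL. They come from RefSeq (GRCm38.p6) and are written 5′ to 3′ on the strand of the gene, with capitals for a match to the kB consensus bound by NF-kB.
Ltb, chr17:35194257-35194506, plus strand: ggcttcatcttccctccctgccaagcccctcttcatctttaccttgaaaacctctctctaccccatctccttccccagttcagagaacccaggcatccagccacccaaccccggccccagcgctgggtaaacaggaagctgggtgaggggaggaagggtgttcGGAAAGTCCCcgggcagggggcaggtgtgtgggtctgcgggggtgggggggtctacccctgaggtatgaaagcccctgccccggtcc
Tnfrsf18, chr4:156026072-156026321, plus strand: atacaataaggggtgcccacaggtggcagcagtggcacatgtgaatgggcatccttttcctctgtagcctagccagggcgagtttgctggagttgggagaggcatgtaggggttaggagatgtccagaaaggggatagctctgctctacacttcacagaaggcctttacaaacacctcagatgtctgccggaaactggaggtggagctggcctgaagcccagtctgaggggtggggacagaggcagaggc
Tnfrsf12a, chr17:23677450-23677699, minus strand: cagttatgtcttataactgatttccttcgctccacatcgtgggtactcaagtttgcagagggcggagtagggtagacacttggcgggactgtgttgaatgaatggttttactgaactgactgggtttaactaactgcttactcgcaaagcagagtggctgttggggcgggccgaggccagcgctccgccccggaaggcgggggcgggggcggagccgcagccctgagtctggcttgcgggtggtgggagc
Traf4, chr11:78165551-78165800, minus strand: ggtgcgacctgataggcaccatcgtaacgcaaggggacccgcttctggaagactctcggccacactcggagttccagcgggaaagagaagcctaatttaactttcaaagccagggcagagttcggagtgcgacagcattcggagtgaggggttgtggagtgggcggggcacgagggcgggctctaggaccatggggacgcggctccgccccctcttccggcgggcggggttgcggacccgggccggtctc
Ltbr, chr6:125313886-125314135, minus strand: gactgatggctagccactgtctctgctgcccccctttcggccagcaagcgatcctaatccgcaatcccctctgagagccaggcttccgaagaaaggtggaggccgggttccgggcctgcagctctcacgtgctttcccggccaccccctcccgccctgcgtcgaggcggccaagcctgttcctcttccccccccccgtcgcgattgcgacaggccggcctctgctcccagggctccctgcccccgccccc
Tnfsf11, chr14:78308044-78308293, minus strand: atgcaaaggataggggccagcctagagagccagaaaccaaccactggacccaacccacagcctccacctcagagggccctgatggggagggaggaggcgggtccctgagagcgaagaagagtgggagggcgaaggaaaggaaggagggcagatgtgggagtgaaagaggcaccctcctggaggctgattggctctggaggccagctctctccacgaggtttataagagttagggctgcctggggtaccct
Of the 51 member genes without Psmg2, 41 matched the promoter table, with 45 promoters. The kB consensus, searched on both strands, was found in 5 of the 45 (11.1%), against 7.25% of all 32851 promoters of the same length. The genes were Ltb, Tnfrsf25, Tnfrsf8, Tnfrsf9 and Traf3, and in Ltb the match begins 87 bases before the start. The progesterone response element half-site TGTTCT, searched on both strands, was found in 1 of the 45 (2.22%), that of Relt, against 16.1% of all promoters. None of the 6 regions printed holds these 6 letters on either strand, a match to one motif cannot lie within the other, and the lack of a match says only that the letters are not in this window. A match is a description and not a binding site.

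The genes that act downstream of the receptors were mostly within 1 log2 unit of the reference. Of 10 NF-kB subunits and inhibitors (13 probes), 1 was called higher (7.69% of probes, against 2.25% of all probes), the inhibitor Nfkbie (1.39 ± 0.01, SD, n = 3; limma adjusted p = 2.79e-05), and 0 lower (against 3.85%). Nfkb2, the subunit of the noncanonical pathway, was at 0.97 and Nfkbia, the main inhibitor of NF-kB, at -0.80, both inside the limit for a call. Median centring moved probes above the negative controls by 1.00 log2 units at the median. Genes of these lists were not followed one by one under it, so whether their calls and values hold was not tested. Of 10 IkB kinases and upstream kinases (17 probes) and of 16 adaptors and death signalling genes (27 probes) 0 were called either way. Below the limit of size, 8 of these 10 and 14 of these 16 genes had a probe with an adjusted p under 0.05. Such p-values were common on these arrays. Of all 41171 tested probes, 10563 lay above the reference and 10137 below it at that limit, so these counts are not particular to the lists. In the second list such probes lay on both sides of the reference, 13 above it and 9 below, among them Casp8 (0.94), the initiator caspase of death receptors, and Birc2 (-0.83), a ligase bound to TRAF2. Of the shedding enzymes, Adam17, which releases soluble TNF, was at 0.70 at both probes, and Adam10 was at 0.18 and -0.78.

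Among 14 target genes of NF-kB, 1 was called higher and 4 lower, which is 1 of 20 probes (5%) against 2.25% of all probes and 5 of 20 (25%) against 3.85%. The higher one was Bcl2l1, the survival factor Bcl-xL, at 1 of 3 probes (1.14 ± 0.05, SD, n = 3; limma adjusted p = 5.43e-05). The lower ones were the adhesion molecules Vcam1 (-3.13 and -1.44 at the called probes) and Icam1, the chemokine Ccl2 (-1.16) and Tnfaip2 (-1.01). Icam1 was at -1.09 at the called probe and at -0.035 at its other probe. Ccl20, a chemokine of mucosal epithelia, was at 0.95. Whether these calls hold under median centring was not tested. These targets are also expressed by mesenchymal and blood cells. All 8 mesenchymal marker genes and 4 of 12 leukocyte marker genes had a probe called lower. By probe this was 56.2% and 22.7%, against 3.85% of all probes. At a limma adjusted p under 0.05, 10 of 22 leukocyte marker probes lay below the reference and 3 above it. Of all 41171 tested probes, 10137 lay below and 10563 above. The 3 above it, of Cd4 and Cd8a, had reference spots that exceeded the negative controls on no array. Of 7 leukocyte marker probes above the negative controls in both channels, 6 lay below the reference at that limit and 0 above it. Over all such probes the shares were 45.2% and 33.1%. What part mesenchymal and blood cells have in the ratios of the NF-kB targets was not tested.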

How the data were processed

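The authors deposited the output of Agilent Feature Extraction 8.1.1.1 for each array: spot intensity in both channels, local background intensity, flags and the log10 ratio of the channels. They also deposited a table of fold changes and p-values between 2 unnamed sides, which was not used. Mean intensities were corrected with limma's normexp (offset 50), normalized by loess within arrays without control spots, and averaged per probe after outlier spots were left out (R 4.3.3, limma 3.58.1). Each probe's mean log2 ratio was compared with 0 by lmFit and eBayes over 41171 probes. On simulated arrays of 41174 probes with 200 changed by 1.5 log2 units, 100% passed the adjusted p and 90.5% the call, with 0 false calls. The changed probes were drawn from those well above background in both channels, raised and lowered in equal number, with a constant dye factor. Changed dim probes and a dye effect that varies with intensity were not simulated, so these shares do not cover them. Probes were not merged per gene. Symbols came from RefSeq accessions for 59 of the 70 member probes. Named were the members well above background in EpH4-PR RNA, the undetected members, Tnf, the RANK axis and Pgr. Of other lists the called probes were named, plus Nfkb2, Nfkbia, Casp8, Birc2, Adam17, Adam10 and Ccl20 chosen after their values were seen. Members, pairs and lists were chosen with earlier results of these data known. Alternatives covered background, scaling, filters, single arrays and the test. Single probes were followed through them for members only. The files name no genome build. Depth does not apply to arrays, whose number limits the precision. Figures were drawn with matplotlib 3.10.9.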

Additional observations from a re-analysis of the deposited data

How the results depend on the processing

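The 3 higher member calls (Tnfrsf12a, Traf4 and Ltbr) and the lower calls of Ltb and Tnfrsf18 held under every alternative run. Tnfrsf13b lost its call without replicate 3 and with the mean over probes of a gene, Traf5 under median centring, and Tnfsf12 and Tnfrsf13b were not among the probes tested when only those above the negative controls were kept. Over all probes 928 were called higher and 1584 lower (36.9% of calls higher), and 3 and 5 among members. With normexp offset 0 these became 3115 and 3909 (44.3%), and 7 and 10 among members, which follows from the smaller offset shrinking dim ratios less. With the scanner log ratio they became 3616 and 3887 (48.2%), and 8 and 10. Median centring gave 7029 and 709 (90.8%), and 9 and 4 (with Tnfrsf1b, Tnfrsf26, Traf1, Traf2, Traf3 and the second Traf4 probe, 1.03, gained as higher), and median centring over bright probes 3676 and 2475 (59.8%), and 6 and 7. Median centring moved probes above the negative controls by 1.00 log2 units at the median and members among them by 0.75, and centring over bright probes moved the median of all probes by -0.44, that of probes above the negative controls by 0.56 and that of members among them by 0.31. Probes above the negative controls in both channels, a criterion added after seeing the data, gave 578 and 1434 (28.7%), and 3 and 3, and no fold limit gave 10563 and 10137 (51%), and 13 and 23. The methods' t-test called 925 and 1583 unadjusted and 893 and 1552 after Benjamini-Hochberg. Without single arrays the counts were 922 to 942 and 1581 to 1609, with 3 and 5 to 6 among members. Listed next are changes of sign with a limma adjusted p under 0.05 in the main fit or in the alternative. Changes without such a p, as for Cd40lg under median centring (-0.08), are left out. Under median centring the log2 ratio turned for Psmg2 (0.96 and 0.92), Fas (0.61), Tnfrsf4 (0.57), Traf6 A_51_P495259 (-0.17), Cd70 (0.16), Tnfrsf1a (0.89), Tnfrsf22 (0.18) and Tnfsf13b A_52_P365480 (0.0995). Under median centring over bright probes it turned for Edar (-0.27), Tnfrsf25 A_51_P178561 (-0.51), Tnfrsf9 A_51_P180952 (-0.41), Tnfsf14 (-0.42), Cd40lg (-0.51), Eda (-0.21), Psmg2 (0.53 and 0.48), Fas (0.17), Tnf (-0.35), Tnfsf9 (-0.33), Tnfrsf4 (0.13), Traf6 A_51_P495259 (-0.61), Tnfrsf1a (0.45), Tnfrsf21 A_52_P451073 (-0.0451) and Tnfsf15 (-0.22). The cause of these changes was not tested. No paired analysis was possible because all arrays belong to 1 group, and a slide block was not run because each slide holds 1 array.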
